A study of Mus musculus with 3 samples.

Results

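Matrix metalloproteinases (MMPs), the ADAM and ADAMTS proteinases and the tissue inhibitors of metalloproteinases (TIMPs) were followed between metanephroi of 11.5 days post coitum (dpc) and fetal kidneys of 13.5 dpc. The members were taken by name. They were the array features with exactly 1 platform gene symbol that begins with Mmp, Adam or Adamts and a digit, or that is Timp1, Timp2, Timp3 or Timp4. This gave 56 genes out of 15096 with a symbol of their own, namely 19 MMP, 4 TIMP, 26 ADAM and 7 ADAMTS genes. Of these, 49 had a log2 ratio on all 3 arrays (17 MMP, 4 TIMP, 21 ADAM and 7 ADAMTS), and features of 1 symbol were averaged.

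Each of the 3 arrays carried both ages of CD1 mouse embryos, an outbred strain, microdissected and pooled over both sexes, with no genetic change or treatment named in the labels. Channel 1 held the 11.5 dpc metanephroi and channel 2 the 13.5 dpc kidneys, and arrays 1 and 2 had one dye order and array 3 the other. A positive log2 ratio is read as more RNA at 11.5 dpc. This direction is likely and not settled. The labels also do not settle the sign of array 3 against the other arrays, whose correlation with it across genes was 0.12 (array 1) and -0.12 (array 2). As deposited, 15 of 16 endothelial and 12 of 15 erythroid marker genes had the same sign on arrays 2 and 3, against 51.2% of all rows. Germ cell and gonad markers (6 of 14) and granulocyte and mast cell markers (6 of 13) lay below that share. The labels do not tie the arrays to separate pools of embryos. The p-values therefore measure array-to-array spread only, and this spread may be technical. The ratios give no level of a gene in either age, so the tissue could not be checked for its defining markers, and fewer cells of a type cannot be told apart from less RNA per cell.

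The MMP, ADAM and ADAMTS families share a zinc-dependent catalytic fold. MMPs are made as inactive precursors and cut collagens, laminins and other matrix proteins once their propeptide is removed, and TIMPs block the active site. Membrane-anchored ADAM proteinases release growth factors, Notch receptors and adhesion proteins from the cell surface, and some ADAMs have lost the catalytic residues and serve in adhesion. ADAMTS proteinases are secreted and cut proteoglycans such as versican and aggrecan, or the propeptides of collagens. In the growing kidney the ureteric bud branches through a matrix that is continually remodelled, and gelatinases and membrane-type MMPs have long been studied in that setting.

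No member of the 4 families passed the threshold, an adjusted p under 0.05 by limma with Benjamini-Hochberg adjustment over all 19015 rows, and the share of all rows past it was also 0%. The smallest adjusted p among the members was 0.504. At an unadjusted limma p under 0.05 there were 3 of 49 members, all with negative ratios, which is 6.12% against 9.24% of all rows. These were the sperm genes Adam5 and Adam3 and the neuronal gene Adam22. With array 3 turned none of them was at that p, and 4 other members were (Adam21, Mmp16, Mmp28 and Mmp7). As deposited, array 3 lay opposite in sign to arrays 1 and 2 in each of these 4. A log2 ratio of 1 sign on all 3 arrays was found for 12 members (24.5%, against 35.3% of all rows), and 0 members were at least 2-fold different with 1 sign on every array (0.684% of all rows). None reached 1.5-fold on every array either (0, against 2.52% of all rows). Taken by pairs, 28 members had the same sign on arrays 1 and 2 (57.1%, against 64.5% of all rows), 25 on arrays 1 and 3 (51%, against 54.9%) and 20 on arrays 2 and 3 (40.8%, against 51.2%). Each of these shares lies below that of all rows. The 95% limma interval of the mean lay within 2-fold in both directions for 36 of the 49 members (73.5%, against 64.1% of all rows), and for 35 with the sign of array 3 turned. Without array 3 it did so for 29 members (59.2%, against 56.7% of all rows) and for 8 of 17 MMP genes (47.1%). For the remaining members a 2-fold difference lies inside the interval.

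**Figure D1:**
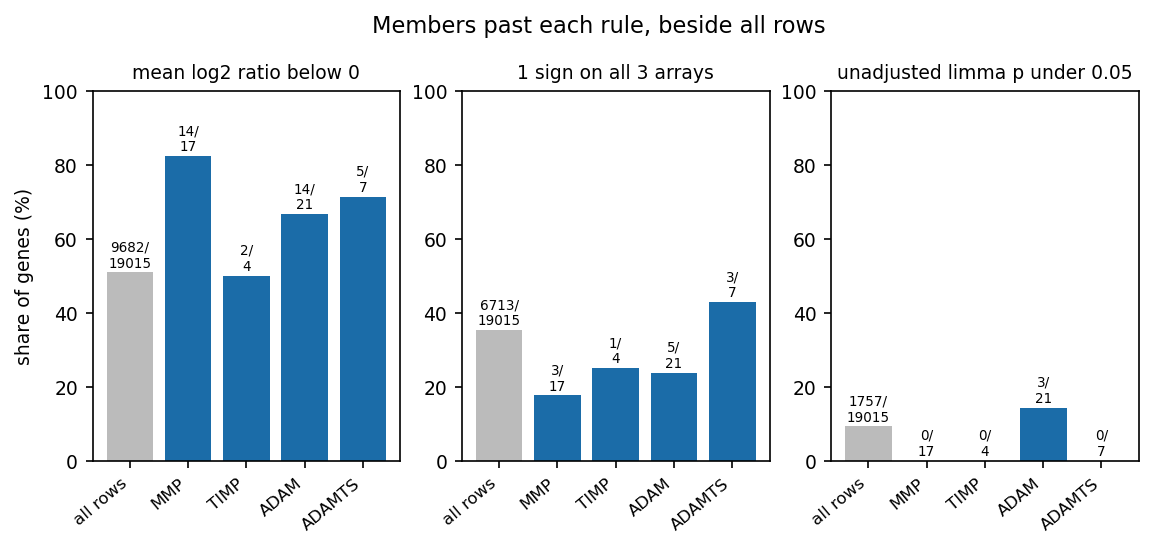
Share of genes in percent (vertical axes) past each of 3 descriptive rules, for all rows (grey) and each family (blue), with the counts above the bars. MMP, ADAM and ADAMTS genes more often had a mean below 0 than all rows, and 3 of 17 MMP, 5 of 21 ADAM and 3 of 7 ADAMTS genes (42.9%) had 1 sign on all arrays, against 35.3% of all rows.

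The mean log2 ratio was below 0 for 35 of the 49 members (71.4%, against 50.9% of all rows). The median of the member means was -0.11, beside -0.0084 for all rows. By array the member median was -0.16, -0.028 and 0.0086 on arrays 1, 2 and 3, where all rows had 0.011, 0.064 and -0.091. Members thus lay below the rest of the array on arrays 1 and 2 and above it on array 3. The median SD over the 3 arrays was 0.31 for members and 0.34 for all rows, larger than the median size of a member's mean (0.16).

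Sequence upstream of the genes is shown for a block of MMP genes that are neighbours on mouse chromosome 9. In the RefSeq gene table of GRCm38.p6, 10 MMP genes follow each other there with no other protein-coding gene between their starts, and 9 of them had a feature on the array. Promoter windows of 300 bases (250 before and 50 after the start) were held for 32 of the 56 members. The motifs searched, on both strands, were TGANTCA, the letters of the AP-1 element, which reads the same on both strands, TATAAA, the letters of the TATA box, and GGGCGG, the letters of the GC box. TGANTCA and TATAAA stood together in the windows of 8 of 14 MMP genes (57.1%), of 0 of 4 TIMP, 0 of 11 ADAM and 0 of 3 ADAMTS genes, and of 1.84% of all 27025 genes with a window. All 8 belong to the block on chromosome 9 (Mmp1a, Mmp1b, Mmp3, Mmp7, Mmp10, Mmp12, Mmp13 and Mmp20). Singly, TGANTCA was found in 11 of 32 members (34.4%) and 8.97% of all genes, TATAAA in 10 (31.2%) and 15.7%, and GGGCGG in 16 (50%) and 38.2%. Mmp7 has 2 windows, of which the one with both motifs is printed. These counts are descriptions of letters, not of bound factors. The 100 bases just before the start are printed for 5 of the 7 genes of the block that were measured on all arrays. These 5 are all among the 8 with both motifs. Of the other measured genes of the block, Mmp12 is also among the 8 and Mmp8 is not. The same stretch is printed for 2 membrane-type MMP genes outside the block. All are given 5′ to 3′ on the gene's strand. Capitals mark the 3 motifs, none of which overlapped another.
Mmp1b, chr9:7388027-7388126, minus strand: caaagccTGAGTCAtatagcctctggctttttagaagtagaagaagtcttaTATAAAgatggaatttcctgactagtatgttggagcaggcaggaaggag
Mmp3, chr9:7445722-7445821, plus strand: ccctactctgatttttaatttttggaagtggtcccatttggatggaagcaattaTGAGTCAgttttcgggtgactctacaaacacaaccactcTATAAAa
Mmp7, chr9:7691990-7692089, plus strand: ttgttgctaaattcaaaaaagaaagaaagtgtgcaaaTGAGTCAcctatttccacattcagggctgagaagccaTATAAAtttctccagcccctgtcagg
Mmp10, chr9:7502242-7502341, plus strand: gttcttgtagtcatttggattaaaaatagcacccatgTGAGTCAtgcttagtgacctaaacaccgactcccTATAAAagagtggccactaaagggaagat
Mmp13, chr9:7272414-7272513, plus strand: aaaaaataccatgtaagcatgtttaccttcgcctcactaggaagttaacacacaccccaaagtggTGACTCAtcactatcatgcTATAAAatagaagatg
Mmp14, chr14:54431498-54431597, plus strand: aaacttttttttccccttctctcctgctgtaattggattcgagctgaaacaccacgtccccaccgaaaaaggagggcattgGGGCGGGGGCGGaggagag
Mmp24, chr2:155775242-155775341, plus strand: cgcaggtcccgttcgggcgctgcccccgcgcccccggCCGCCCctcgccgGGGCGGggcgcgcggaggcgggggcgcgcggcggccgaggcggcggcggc

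In each of the 5 printed genes of the block the TGANTCA letters precede the TATAAA letters. Their first bases lie 34 to 44 bases apart in Mmp1b, Mmp3, Mmp7 and Mmp10, and 19 bases apart in Mmp13. Mmp14 and Mmp24 have a pair of GGGCGG matches each in the printed stretch and neither of the other motifs. The 6 measured genes with both motifs had means from -0.18 to 0.53 with a median of -0.076, and 4 of them were below 0. The 15 measured members with GGGCGG and not both other motifs had a median of -0.096, from -0.50 to 0.30.

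Collagenases open triple-helical collagen. Mmp1b was grouped with them as a rodent relative of interstitial collagenase, and its own activity on collagen was not examined. It had log2 ratios of 1.30, 0.12 and 0.17 on arrays 1, 2 and 3. Array 1 stood far above the others, and the mean of 0.53 ± 0.67 (SD, n = 3 arrays) was the highest of the MMP genes (limma adjusted p = 0.623), falling to 0.15 without array 1. Mmp13, the collagenase of cartilage and bone, had 0.56, -0.18 and 0.064, and Mmp8, the neutrophil collagenase, had -0.61, 0.016 and 0.12. In both, array 1 stood apart from the other arrays, in opposite directions. Mmp1a had values on 2 arrays, -0.77 and -0.09 on arrays 2 and 3.

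The gelatinases Mmp2 and Mmp9 degrade denatured collagen and collagen IV of basement membranes. Mmp2 had -0.21, -0.33 and 0.14 on the 3 arrays, with a mean of -0.13 ± 0.24. Its 95% limma interval ran from -0.61 to 0.35, a ratio of 0.655 to 1.27 of 11.5 over 13.5 dpc (adjusted p = 0.801). Mmp9 had -1.43, -0.36 and 0.45, so the arrays spanned from well below 0 to above it. Its mean of -0.45 ± 0.94 (limma adjusted p = 0.721) was the lowest of the MMP genes and turned to 0.042 without array 1.

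Membrane-type MMPs act at the cell surface, and Mmp14 activates the precursor of Mmp2 there. All 4 measured members had means below 0, with a median of -0.28, beside -0.13 for the 17 MMP genes and -0.0084 for all rows. Mmp14 had -0.06, -0.16 and -0.43, negative on every array, with a mean of -0.22 ± 0.19 (limma adjusted p = 0.678) that became 0.069 with array 3 turned. Mmp24, a membrane-type enzyme best known from nervous tissue, had -0.53, -0.42 and -0.16. Its mean of -0.37 ± 0.19 was the MMP value with the smallest p (limma adjusted p = 0.569) and stayed between -0.47 and -0.26 in every alternative run. Mmp16 had -0.95, -0.61 and 0.52, so array 3 lay opposite to the other arrays. Mmp17, which is held by a lipid anchor, had -0.64, 0.28 and 0.065.

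The stromelysins Mmp3, Mmp10 and Mmp11 and the small enzyme matrilysin, Mmp7, cut matrix glycoproteins and other precursors. Their means lay between -0.18 and -0.019. Mmp7 had 0.57, 0.35 and -1.06, and again array 3 lay opposite. Among the others, the epilysin gene Mmp28 had the widest spread of the family, with 0.10, 1.28 and -1.82 and a mean of -0.15 ± 1.57. Mmp23 lay near 0 on each array (0.0086, 0.0058 and -0.12), as did the macrophage elastase gene Mmp12 (-0.16, 0.013 and -0.17). Mmp19 is the average of 2 features of opposite sign, with feature means of -0.10 and 0.17, and its own mean was 0.034 ± 0.20 (limma adjusted p = 0.949). The tooth enamel proteinase gene Mmp20 had values on 2 arrays, -0.25 and 0.02. In the family as a whole 14 of 17 means were below 0 (50.9% of all rows). The family median was -0.13 and stayed between -0.22 and -0.057 in the alternatives run. By array it was -0.17, 0.013 and 0.064, so it was below 0 on array 1 alone.

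**Figure D2:**
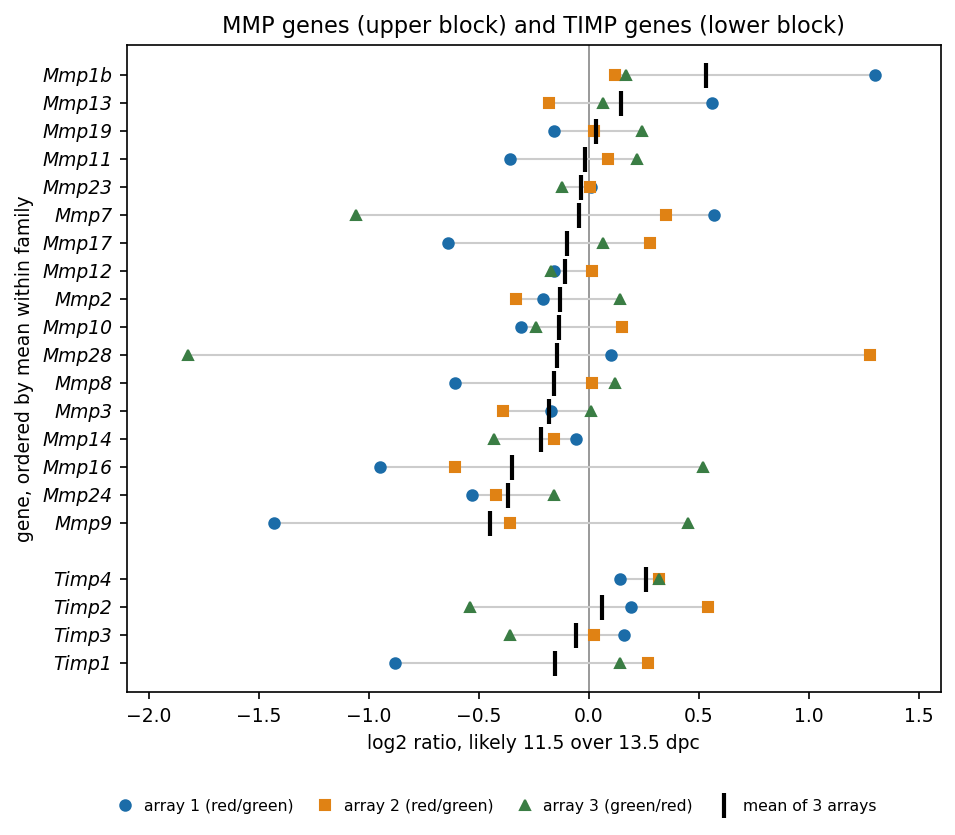
Log2 ratio of each measured MMP and TIMP gene (horizontal axis) on array 1, 2 and 3, with a black tick at the mean and a grey line over the range. Mmp1b, Mmp14, Mmp24 and Timp4 had all their arrays on 1 side of 0, and Mmp28 spread from -1.82 to 1.28.

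The 4 TIMP genes were all measured. Timp4, an inhibitor first known from heart, had 0.14, 0.32 and 0.32, positive on every array, with a mean of 0.26 ± 0.10 (limma adjusted p = 0.622). Timp3, which binds to the matrix and also inhibits ADAM and ADAMTS proteinases, had 0.16, 0.023 and -0.36 and a mean of -0.058 ± 0.27 (adjusted p = 0.921). Timp2, the partner of Mmp14 in the activation of Mmp2, had 0.19, 0.54 and -0.54 and a mean of 0.062 ± 0.55 (adjusted p = 0.942). Timp1 had -0.88, 0.27 and 0.14 and a mean of -0.15 ± 0.63 (adjusted p = 0.867). Timp4 was the one TIMP whose arrays agreed in sign as deposited. With array 3 turned its mean was 0.045 and its arrays no longer agreed, while those of Timp2 and Timp3 did. The means of Timp1, Timp2 and Timp3 each changed sign in at least one alternative (0.21 for Timp1 without array 1, -0.18 for Timp2 without array 2 and 0.18 for Timp3 with array 3 turned). All 4 intervals of 95% lay within 2-fold in both directions as deposited, and 3 did with array 3 turned. The family median was 0.0021, and it was -0.14 without array 2 and -0.084 with a dye term.

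Among the ADAM genes of somatic tissue with an active site, Adam10, the sheddase that starts Notch receptor cleavage, had -0.19, 0.021 and -0.11. Its mean of -0.090 ± 0.10 had a 95% limma interval from -0.50 to 0.32 (adjusted p = 0.843), and it was 0.063 once a running median in library order had been taken off. Adam17, which releases tumour necrosis factor and ligands of the EGF receptor, had no value on array 1 and -0.18 and -0.73 on arrays 2 and 3. Adam9 had -0.38, -0.37 and 0.19, and Adam15 had 0.33, -0.27 and -0.66. Adam19, an ADAM of heart and neural crest development, lay close to 0 with 0.041, -0.028 and 0.21. Adam8, known from leukocytes, had -0.29, 0.30 and -0.29. Adam12 had 0.62 and 0.06 on arrays 2 and 3. Of the 7 genes of this group measured on all arrays, 0 had 1 sign throughout (35.3% of all rows).

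In 2 genes of this group a single array made most of the spread. Adam33, whose human counterpart was studied in asthma, had 0.016, -4.65 and 1.00, and its mean of -1.21 ± 3.02 was the lowest of all members because of array 2 (limma adjusted p = 0.746). Adam28, an ADAM of lymphocytes and epididymis, had -0.20, -0.36 and 1.89, and its mean of 0.45 ± 1.26 rested on array 3 (limma adjusted p = 0.780).

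The ADAMs best known from nervous tissue (Adam11, Adam22 and Adam23) lack the catalytic residues. Adam22, a receptor for the secreted protein Lgi1 at synapses, had -0.40, -0.59 and -0.35, negative on every array, and a mean of -0.45 ± 0.13 (limma adjusted p = 0.539). It is the average of 2 features that differed in size. One had -0.60, -1.16 and -0.60 on the 3 arrays, and the other had -0.20, -0.020 and -0.092. Taken alone, the feature nearer to 0 had a mean of -0.11 ± 0.093. Adam11 (0.037, -0.25 and -0.11) and Adam23 (-0.25, 0.08 and -0.015) did not share one sign over the arrays.

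The largest ADAM group is known from testis and epididymis, where these genes serve in sperm maturation and binding to the egg. Of its 14 members, 11 were measured on all arrays, with a median of -0.016. Adam5 had -0.70, -0.72 and -0.43, and its mean of -0.61 ± 0.16 was the member value with the largest limma statistic. This is 1.53-fold less at 11.5 than at 13.5 dpc in the likely direction (limma adjusted p = 0.504). Adam3, cyritestin, had -0.64, -0.23 and -0.63 and a mean of -0.50 ± 0.23 (limma adjusted p = 0.539). Both genes lay below 0 on every array. They are neighbours on mouse chromosome 8, in a row of Adam18, Adam3, Adam5, Adam32 and Adam9. The other measured genes of that row had means of 0.092 (Adam18) and -0.19 (Adam9), each with arrays on both sides of 0. Adam3 and Adam5 also lie close in the order of the oligonucleotide library, at places 6317 and 6327. Adam28 and Adam18 lie between them, at places 6325 and 6326, with means of 0.45 and 0.092. With a running median in that order taken off, the means of Adam3 and Adam5 were -0.39 and -0.49.

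On the positive side Adam20 had 0.062, 0.52 and 0.18 (mean 0.25 ± 0.24) and Adam39 had 0.05, 0.45 and 0.29 (mean 0.26 ± 0.20), with limma adjusted p of 0.657 and 0.643. These are also neighbours in the gene table, and both were positive on every array. The other members on all arrays, Adam1a, Adam2, Adam4, Adam7, Adam18, Adam21 and Adam30, had means from -0.40 to 0.19 and values on both sides of 0. Adam25 and Adam26a had values on arrays 2 and 3, -1.17 and 0.22 for Adam25 and 0.64 and 1.01 for Adam26a, and Adam24 had 0.74 on array 3 alone. Markers of germ cells and gonad were examined beside this group. Of 14 such genes measured, 11 had a mean below 0 (78.6%, against 50.9% of all rows). At an unadjusted limma p under 0.05 there were 2, both negative (5.07% of all rows were negative at that p). The median of the 14 was -0.20, and it was -0.31, -0.016 and -0.39 on arrays 1, 2 and 3. Cyp11a1, a steroid enzyme of the gonad and adrenal, had -0.88 ± 0.30, and the germ cell gene Dazl had -0.57 ± 0.35. Their part in the values of Adam3 and Adam5 was not tested.

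The ADAM family had 14 of 21 means below 0 (66.7%, against 50.9% of all rows). Its median was -0.090, beside -0.0084 for all rows, and the ADAM median was 0.057 with the running median taken off. By array it was -0.17, -0.23 and -0.015.

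**Figure D3:**
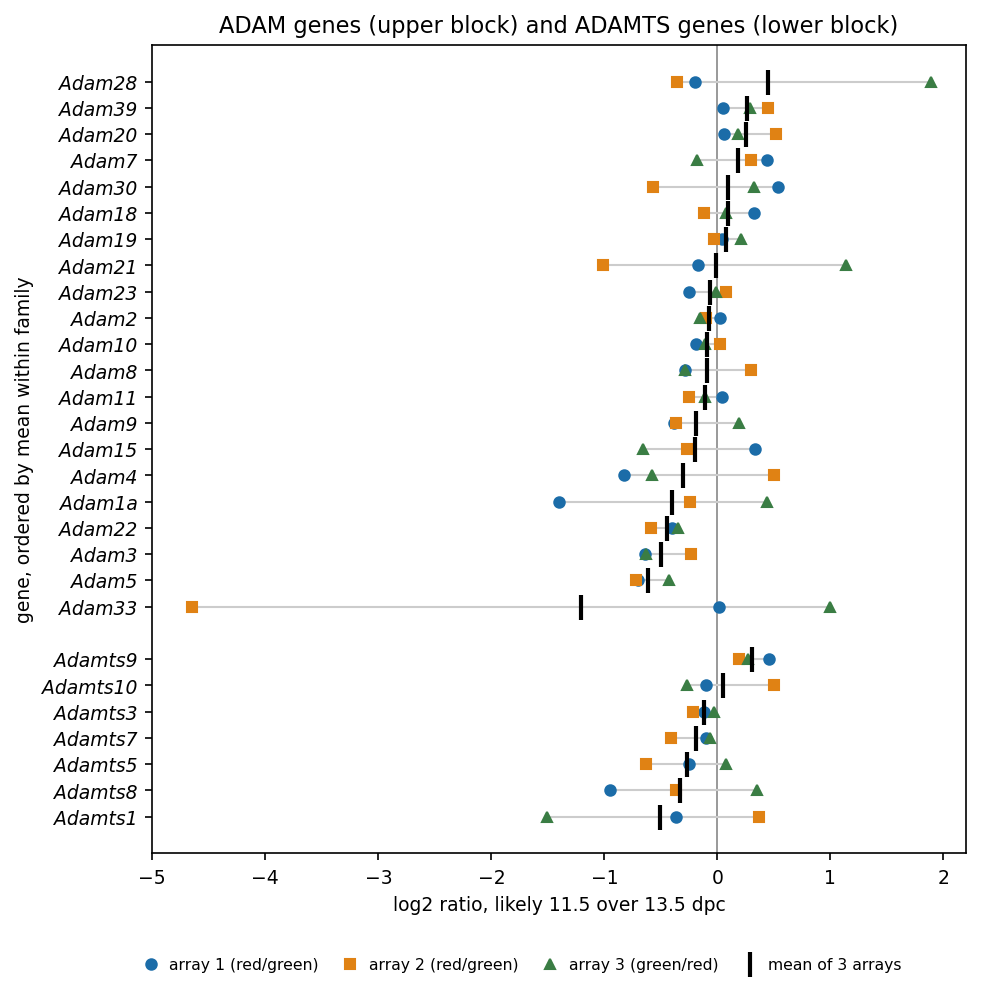
Log2 ratio of each measured ADAM and ADAMTS gene (horizontal axis) on array 1, 2 and 3, with a black tick at the mean and a grey line over the range. Adam5, Adam3, Adam22, Adamts3 and Adamts7 had all arrays below 0, Adam20, Adam39 and Adamts9 all above it, and Adam33 reached -4.65 on array 2.

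Among ADAMTS genes, Adamts1, Adamts5, Adamts8 and Adamts9 cut aggrecan, and several of them cut versican. Adamts1, whose loss in mice malforms the kidney and ureter, had -0.37, 0.37 and -1.51. Its arrays lay on both sides of 0, and the mean of -0.50 ± 0.95 (limma adjusted p = 0.698) was 0.0015 without array 3 and 0.51 with array 3 turned. Adamts5, its neighbour on chromosome 16, had -0.25, -0.63 and 0.075 (mean -0.27 ± 0.35, adjusted p = 0.679). Adamts8 had -0.95, -0.37 and 0.35, so array 3 lay opposite to the other arrays.

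Adamts9 was the ADAMTS gene with the largest limma statistic. It had 0.46, 0.19 and 0.27, positive on every array, with a mean of 0.30 ± 0.14 (limma adjusted p = 0.592). Its 2 features differed in size, with means of 0.069 ± 0.052 and 0.54 ± 0.26. Adamts3, which removes the propeptide of procollagen, had -0.12, -0.22 and -0.034, and Adamts7, which cuts cartilage oligomeric matrix protein, had -0.10, -0.41 and -0.066. Both were negative on every array, with means of -0.12 ± 0.092 and -0.19 ± 0.19 (limma adjusted p = 0.783 and 0.705). The mean of Adamts7 was 0.00059 with the running median taken off. Adamts10, linked to fibrillin microfibrils, had -0.10, 0.50 and -0.27. Adamts4 was not analysed here. The family median was -0.19 over 7 genes, and it was -0.12, -0.22 and -0.034 by array.

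Other genes of proteolysis at the cell surface and in the matrix were taken from lists made by function. In the plasminogen system, which activates several MMP precursors, 0 of 13 measured genes had an unadjusted limma p under 0.05 (9.24% of all rows), and the median was 0.049. The HGF activator gene Hgfac had 0.95 ± 0.79 and Hgf itself 0.46 ± 0.38. Convertases and membrane serine proteases with their inhibitors had a median of -0.26 over 12 genes, 10 of them below 0 (50.9% of all rows). The inhibitor gene Spint2 had -0.68 ± 0.28 and the convertase gene Pcsk5 had -0.61 ± 0.45. Astacins, pappalysins and their regulators had a median of -0.12 over 11 genes, with the tolloid-like gene Tll1 at -0.70 ± 0.31 and Pappa at -0.61 ± 0.41. Other inhibitors and cofactors of metalloproteinases had a median of -0.24 over 19 genes, 16 of them below 0 (50.9% of all rows). Among them Adamtsl5, an ADAMTS-like gene without a protease domain, had -0.45 ± 0.12 and the proteoglycan gene Spock1 had -0.61 ± 0.40. Of these 4 lists 4 genes had an unadjusted limma p under 0.05, all negative, and 0 passed the threshold adjusted over all rows. They were 1 gene of the convertase list (8.33%), 1 of the astacin list (9.09%) and 2 of the other inhibitors and cofactors (10.5%). Of all rows 5.07% were negative at that p and 9.24% were at it in either direction.

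Partners of Adam10 and Adam17 had a median of -0.25 over 12 genes, of which 11 were below 0 (50.9% of all rows). At an unadjusted limma p under 0.05 there were 3, all negative (25%, against 5.07% of all rows). The integrin gene Itga5 had -0.58 ± 0.22, and Tspan33, a tetraspanin that guides Adam10, had -0.58 ± 0.26. Substrates shed by ADAMs had a median of -0.20 over 38 genes, 24 of them below 0 (63.2%, against 50.9% of all rows). Of the 38, 6 were negative and 1 positive at an unadjusted limma p under 0.05 (5.07% and 4.17% of all rows). The largest limma statistics belonged to the Notch ligand Dll1 (-2.50, -2.63 and -1.61) and the ephrin gene Efna2 (1.14, 0.82 and 0.98). Collagens and glycoproteins cut by MMPs had a median of -0.38 over 24 genes, 13 of them negative on all arrays (18.5% of all rows). Of the 24, 10 were negative (41.7%) and 1 positive at an unadjusted limma p under 0.05, against 5.07% and 4.17% of all rows. In that list Bgn had -1.25 ± 0.066 and Tnc had -1.43 ± 0.40. Proteoglycans and hyaluronan genes in the range of ADAMTS enzymes had a median of 0.015 over 9 genes. Fbln1, a matrix cofactor of Adamts1, had -0.48 ± 0.24, and the hyaluronan synthase gene Has3 had -0.20 ± 0.30.

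**Figure D4:**
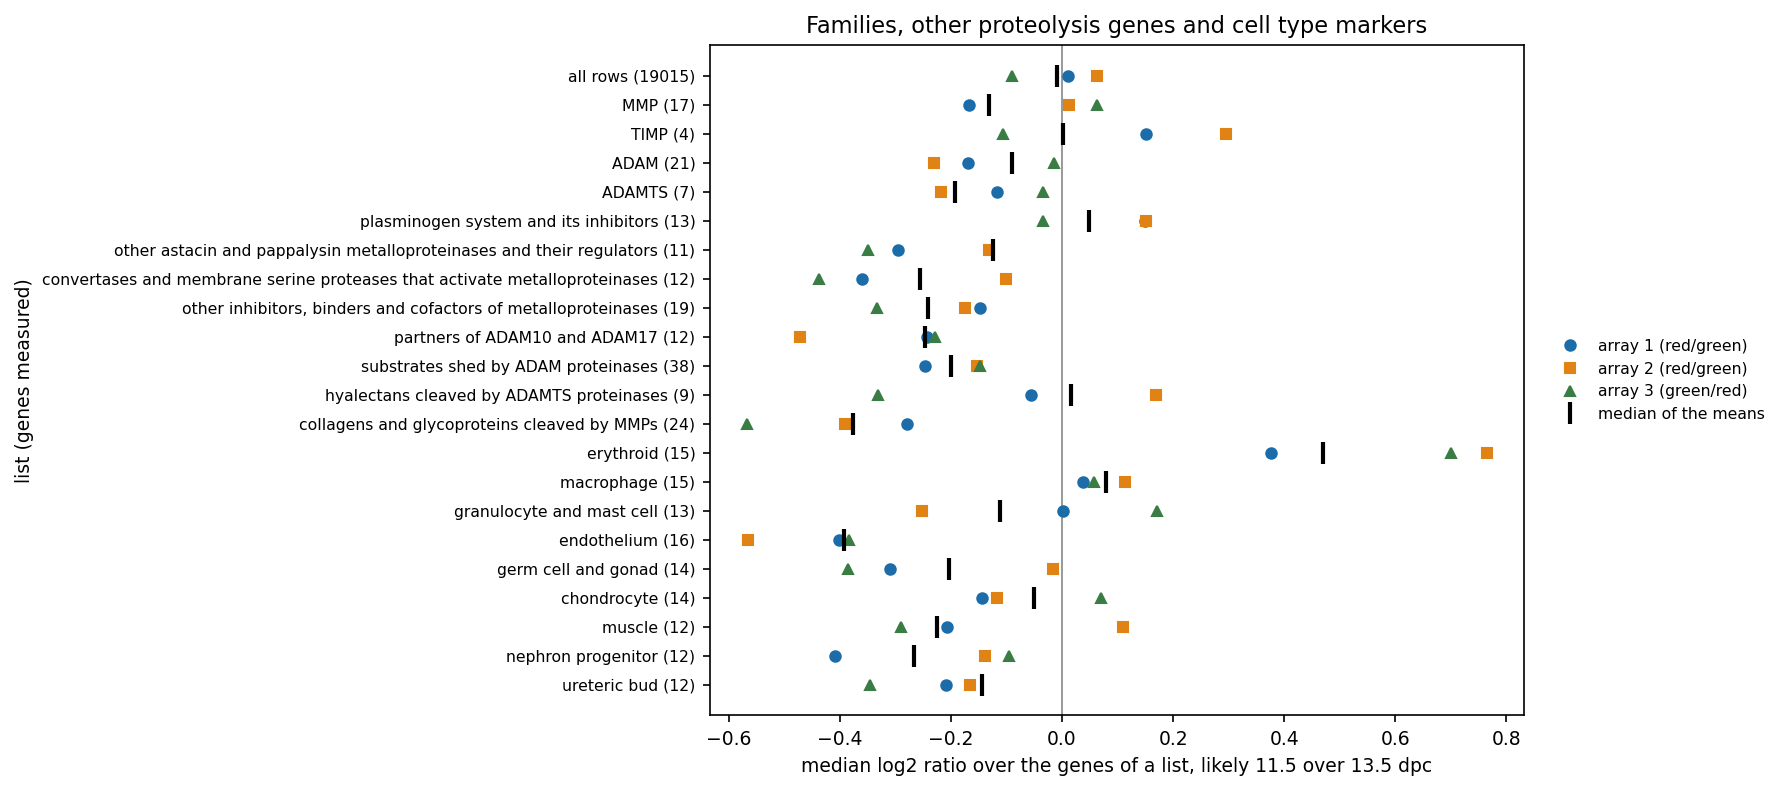
Median log2 ratio over the genes of each list (horizontal axis) on array 1, 2 and 3, with a black tick at the median of the gene means and the number of measured genes in brackets. The families lie between -0.19 and 0.0021, while collagens and glycoproteins cut by MMPs lie at -0.38, endothelial markers at -0.39 and erythroid markers at 0.47.

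Cell types that carry these genes were followed by their markers. Endothelial markers had a median of -0.39 over 16 genes, 12 of them negative on all arrays (18.5% of all rows), with Icam2 at -0.83 ± 0.098 and Cldn5 at -0.89 ± 0.45. Erythroid markers had a median of 0.47 over 15 genes, 9 of them positive on all arrays (16.8% of all rows), with Ermap at 3.51 ± 0.25 and Klf1 at 2.18 ± 0.22. Macrophage markers had a median of 0.079 over 15 genes, 5 of them with a mean below 0 (50.9% of all rows). Of the 15, 4 were positive and 2 negative on all arrays (16.8% and 18.5% of all rows). The smallest p-values in that list belonged to 2 of the negative genes, Cx3cr1 (-1.77 ± 1.54) and Itgam (-0.75 ± 0.65). Granulocyte and mast cell markers had a median of -0.11 over 13 genes, 7 of them with a mean below 0 (50.9% of all rows). Of the 13, 3 were positive and 3 negative on all arrays (16.8% and 18.5% of all rows). The 2 with the smallest p were negative, S100a8 at -0.68 ± 0.096 and S100a9 at -0.58 ± 0.16. Chondrocyte markers had a median of -0.051 over 14 genes (Col9a1 1.56 ± 0.42, Matn3 -0.61 ± 0.13) and muscle markers of -0.23 over 12 (Acta1 -2.36 ± 0.65, Actc1 0.68 ± 0.14). Nephron progenitor markers had a median of -0.27 over 12 genes (Cited1 -0.85 ± 0.37, Osr1 0.42 ± 0.15) and ureteric bud markers of -0.14 over 12 (Cdh16 -1.62 ± 0.12, Krt8 -0.63 ± 0.28). Of the ureteric bud markers 8 had a mean below 0 (50.9% of all rows), and 2 were positive and 5 negative on all arrays. The part of these cell types in the members' values was not tested.

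Of the 21 named members with a row, 12 kept 1 sign of the mean in each of the 10 alternative settings that give a mean. They were Mmp1b, Mmp2, Mmp24, Timp4, Adam3, Adam5, Adam20, Adam22, Adam39, Adamts3, Adamts5 and Adamts9. All of these except Mmp2 and Adamts5 had 1 sign on all arrays as deposited, and the naming rule favoured such members. Leaving out an array could not change the sign of their means, so for them those settings are no check of the sign. Rows with a value on at least 2 arrays, and single features for genes with 1 feature, gave the main means of the 12 again. Median centring and quantile normalisation changed the sign of 0 of all 49 member means. With array 3 turned the means of Adam3, Adam22 and Adam5 were -0.079, -0.22 and -0.33.

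**Figure D5:**
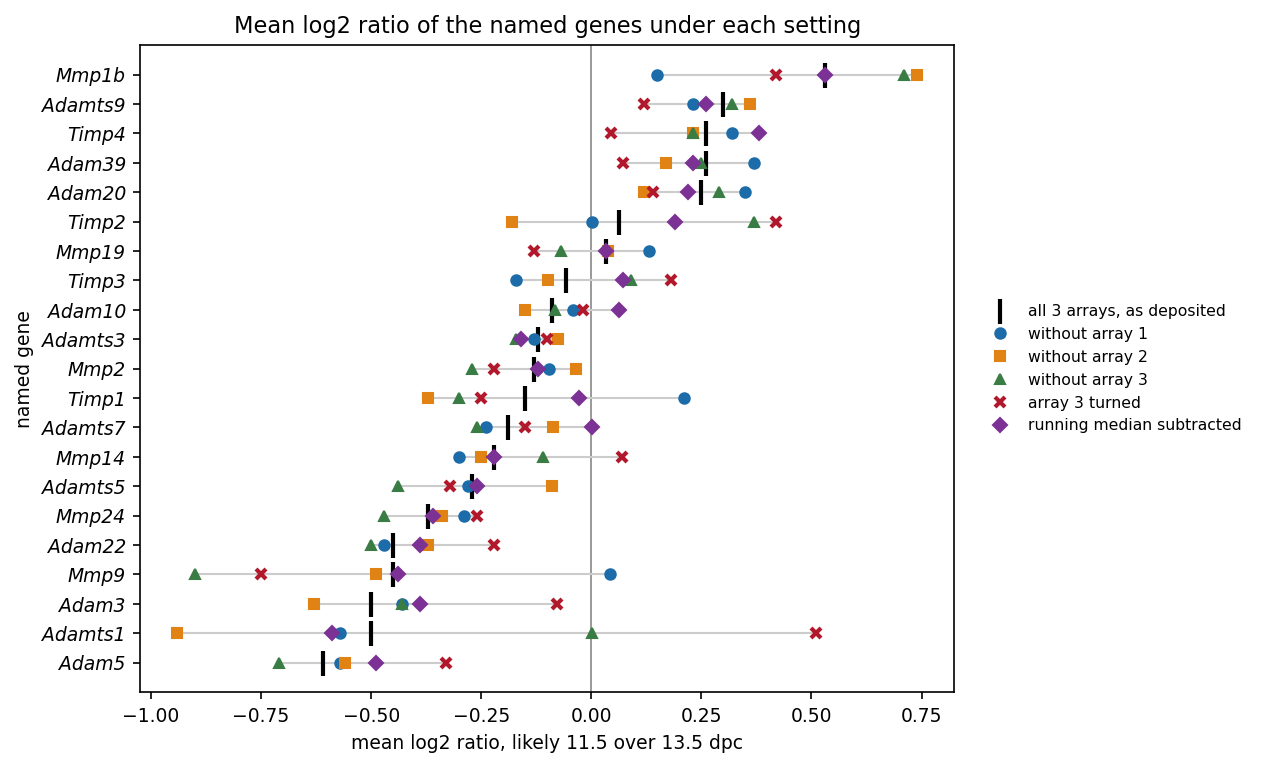
Mean log2 ratio (horizontal axis) of the named members with all 3 arrays as deposited (black tick), without each array in turn, with array 3 turned and with a running median in library order taken off. Adam5, Adam22 and Mmp24 stay below 0 and Adamts9 and Timp4 above it, while Adamts1 runs from -0.94 to 0.51. Unlike Adamts1, the other genes named here had 1 sign on all arrays, so leaving out an array could not move their means across 0.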

How the data were processed

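The deposited values are log2 ratios of the 2 channels of each array, already normalised by the authors. Per the labels, images were quantified with ImaGene, and 2 accounts of the normalisation stand there, print-tip loess with a normalisation between arrays and a Lowess curve on the control channel. The labels do not say which of them made the table. No spot intensity entered the work. Dim or saturated spots could thus not be assessed, and the number of arrays limits the precision.

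Of 21819 gene features, 20386 had a value on all 3 arrays. Averaging the features of a symbol left 19015 rows. Array 3 was used as deposited. The test of each row's mean against 0 was two-sided and used limma (version 3.58.1, under R 4.3.3) through lmFit and eBayes. Its p-values were adjusted by Benjamini-Hochberg over all rows, and the procedure was tested on simulated data. The members and lists were chosen with earlier results of these data known. The groups within families were made by textbook function and carry no test.

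Named members were all TIMP genes, 9 genes in any case (Mmp2, Mmp9, Mmp14, Adam10, Adam17, Adamts1, Adamts4, Adamts5 and Adamts9), up to 4 members of 1 sign on each side per family by the limma statistic, any member with features of opposite sign or over 1 log2 unit apart, any member at least 2-fold on every array (0 were), and 2 genes per list by p. Other members named were chosen after their values were seen. A planned search of protein sequences was not run, and RefSeq promoters of GRCm38.p6 were searched in its place, a choice made after the data were seen.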

Additional observations from a re-analysis of the deposited data

How the results depend on the processing

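No row and no member passed the adjusted threshold in limma or in the ordinary one-sample test under any alternative run. The count of rows at an unadjusted limma p under 0.05 was 1757. It was 2669 with a dye term and 1829 by the ordinary one-sample test, which put 3 members at that p, and it ran from 736 to 2346 without 1 array. Of members, 3 were at that p, against 1 with a running median in library order taken off and 0 to 2 without 1 array. Without array 1 or array 2 none of the 49 was left. With array 3 turned the 3 gave way to 4 others (Adam21, Mmp16, Mmp28 and Mmp7), and a dye term kept Adam5 and brought in Adam28 and Adamts1. Adam5 stayed at that p in 7 of 10 settings, Adam3 in 4 and Adam22 in 1, and all 3 had negative means in each. These genes were negative on every array, so leaving out 1 array could not change that sign. Single features, and rows with a value on at least 2 arrays, gave the main means of Adam5 and Adam3 again. Both settings are among the 7 and the 4, and there they are no separate check. The 1 setting of Adam22 was that of rows with a value on at least 2 arrays, where its mean was also unchanged. Members with 1 sign on every array numbered 12, and from 20 to 28 when any array was left out and a pair had to agree. The ADAM median turned to 0.057 with the running median taken off, and the ADAMTS median was -0.09 without array 2 and -0.17 to -0.13 without either other array. Without 1 array the MMP, TIMP and ADAM medians ran from -0.22 to -0.057, -0.14 to 0.16 and -0.085 to -0.041. Turning array 3 changed the sign of 16 of 49 member means, leaving out array 1, 2 or 3 changed 12, 4 and 10, and median centring and quantile normalisation changed 0. Both ages lie on every array, so the test of the ratios against 0 is itself the paired comparison, and no further replicate block could be added.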
